A study of Mus musculus with 9 samples.

Results

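The RNA of 10 genes of fibroblast growth factor (FGF) signalling was compared in the E16.5 mouse lens. These genes were the receptors *Fgfr1*, *Fgfr2* and *Fgfr3*, their docking protein *Frs2*, the feedback inhibitors *Spry1*, *Spry2*, *Spry4* and *Dusp6*, and the ETS factors *Etv4* and *Etv5*. They were chosen by gene symbol, and all 10 were found among 55416 gene identifiers and passed the filter on low counts, which kept 14903 genes. The data are total RNA libraries of whole lenses, each from the lenses of a single embryo. 4 libraries were from *Atf4* null embryos, homozygous for the germline allele Atf4tm1Tow, which deletes the coding sequence of the stress-response transcription factor ATF4 in every cell of the animal. 5 were from wildtype littermates. Embryos of both groups came from crosses of heterozygous parents on a mixed C57Bl/6/129 background, all at E16.5, and the colony was not typed for the *Bfsp2* deletion that 129 mice carry. The comparison asks how the RNA of these genes differs in lenses that develop without ATF4.

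FGFs bind receptor tyrosine kinases together with heparan sulfate, and the receptor phosphorylates FRS2, which recruits GRB2 and starts the RAS to ERK kinase relay. ERK activity raises the transcription of ETS factors and of inhibitors that act back on the relay: Sprouty proteins act on the steps near the receptor and RAS, and DUSP6 removes phosphate from ERK. In the lens, FGFs from the surrounding eye support epithelial cells and drive their differentiation into fiber cells, and their target genes are widely used as readouts of this pathway.

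Library sizes were close, from 8409779 to 8906996 gene counts in wildtype and from 7440807 to 8696699 in *Atf4* null lenses. *Atf4* itself lay between 119 and 155 CPM (counts scaled to a common library size by TMM factors) in wildtype and between 0.582 and 10.6 CPM in *Atf4* null libraries, a log2 fold change of -4.55 (SE 0.47, adjusted p = 9.75e-05), so the labels match the targeted gene. The libraries were not pure lens. Wildtype 5 held 9797 CPM of 12 skeletal muscle markers against 72.1 to 158 in the other libraries, and 14717 CPM of 12 mesenchyme markers against 281 to 667. The 14 retina markers summed to 347 to 951 CPM in *Atf4* null and 223 to 307 CPM in wildtype libraries, with no overlap, and 6 of the 14 were called higher. Of the lens lists, 6 of 12 epithelial, 4 of 13 tested fiber and 9 of 16 crystallin genes were called lower in *Atf4* null lenses, with none higher. The fiber sum was 11372 CPM in *Atf4* null 1, the lowest of all, and 26290 CPM in *Atf4* null 4, near the 26675 to 30353 CPM of wildtype 1 to 4. In wildtype 5 it was 15869 CPM, below *Atf4* null 2, 3 and 4.

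3 of the 10 genes were higher in *Atf4* null lenses, *Dusp6*, *Spry2* and *Spry1*, and no library of either genotype overlapped with the other for any of them. Their promoters are shown because these genes were called in the same direction: each line holds the 250 bases before the annotated transcript start, read 5′ to 3′ on the gene's strand from GRCm39, *Spry1* from chr3:37693647-37693896 (plus), *Spry2* from chr14:106134793-106135042 (minus) and *Dusp6* from chr10:99098818-99099067 (plus). Capitals mark the ETS core in the exact form CGGAAG on either strand, and other forms of the core were not searched.
Spry1: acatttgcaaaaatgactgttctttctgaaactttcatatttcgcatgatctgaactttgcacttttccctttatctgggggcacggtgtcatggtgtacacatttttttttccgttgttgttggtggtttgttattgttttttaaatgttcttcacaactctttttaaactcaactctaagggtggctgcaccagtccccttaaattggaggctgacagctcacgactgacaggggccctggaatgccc
Spry2: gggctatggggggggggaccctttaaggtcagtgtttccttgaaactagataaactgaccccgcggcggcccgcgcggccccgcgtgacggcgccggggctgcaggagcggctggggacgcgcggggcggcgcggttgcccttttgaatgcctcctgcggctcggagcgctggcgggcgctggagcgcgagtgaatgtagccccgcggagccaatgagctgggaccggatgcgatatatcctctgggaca
Dusp6: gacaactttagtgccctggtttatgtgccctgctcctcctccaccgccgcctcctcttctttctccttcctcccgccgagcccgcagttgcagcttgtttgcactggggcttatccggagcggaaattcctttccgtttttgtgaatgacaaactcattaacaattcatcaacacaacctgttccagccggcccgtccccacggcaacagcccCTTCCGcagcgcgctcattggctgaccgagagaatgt

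The ETS core was chosen since ETV4, ETV5 and related ERK targets bind it. The exact form CGGAAG was found in 2 of the 10 promoters, 37 bases before the start of *Dusp6*, on the opposite strand, and 201 bases before that of *Etv4*. Of 14864 promoters of this length, 18.5% hold this form. The AP-1 site TGACTCA was found only in *Etv5*, 233 bases before its start (2.91% of promoters), and the ATF4 composite core TGATGCA in none of the 10 (1.89% of promoters), all searched on both strands. The called promoters also differed in composition, with 42% G and C in *Spry1*, 56% in *Dusp6* and 68.8% in *Spry2*. These matches describe letters in a short window and not binding.

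*Dusp6*, which encodes the ERK phosphatase (chr10:99099068-99103361, plus strand), had the smallest p of the 10 genes. It stood at 47.4, 58.1, 58.4 and 44.6 CPM in *Atf4* null 1 to 4 and at 22.7, 27.03, 28.8, 31.0 and 28.6 CPM in wildtype 1 to 5. Every *Atf4* null library exceeded every wildtype library, and the groups were separated by a gap wider than the whole wildtype range. The mean rose from 27.6 ± 3.09 (SD, n = 5) to 52.1 ± 7.18 CPM (SD, n = 4), a 1.89-fold difference with a 95% interval of 1.49 to 2.38 and a log2 fold change of 0.92 (SE 0.16). The adjusted p was 0.0037, from the quasi-likelihood test of edgeR adjusted by Benjamini-Hochberg over 14903 genes, as are all adjusted p here unless another test is named. The exact two-sided permutation test over libraries gave p = 0.0079, the smallest that 4 against 5 libraries can give. Since the RNA is of whole lenses, more of a cell type and more RNA per cell cannot be told apart.

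*Spry2*, a Sprouty inhibitor of receptor tyrosine kinase signalling (chr14:106128766-106134792, minus strand), rose by a like amount. It stood at 61.0, 74.1, 67.4 and 96.96 CPM in *Atf4* null 1 to 4 and at 37.5, 40.6, 37.6, 52.9 and 30.6 CPM in wildtype 1 to 5. The highest wildtype library stayed below the lowest *Atf4* null library, with *Atf4* null 4 the highest of all. The difference was 1.88-fold (95% interval 1.44 to 2.46), a log2 fold change of 0.91 (SE 0.18, adjusted p = 0.0087, exact permutation p = 0.016).

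*Spry1*, the related inhibitor (chr3:37693897-37698755, plus strand), stood at 76.9, 73.7, 78.6 and 114 CPM in *Atf4* null 1 to 4 and at 62.9, 47.6, 57.1, 57.6 and 35.7 CPM in wildtype 1 to 5. The groups again did not overlap, but *Atf4* null 1 to 3 lay close together, and *Atf4* null 4 stood apart from them. The difference was 1.64-fold (95% interval 1.25 to 2.16), a log2 fold change of 0.72 (SE 0.18, adjusted p = 0.034, exact permutation p = 0.0079). Its call was the least stable of the 3. In edgeR's test it ended without *Atf4* null 2 (adjusted p = 0.055), *Atf4* null 3 (0.066), *Atf4* null 4 (0.093), wildtype 2 (0.086), wildtype 3 (0.062) or wildtype 4 (0.060), with the log2 fold change between 0.55 and 0.79 over all 9 omissions. *Dusp6* and *Spry2* passed without any 1 library, with adjusted p of at most 0.021 and 0.031.

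*Spry4*, the third Sprouty gene measured (chr18:38719300-38734468, minus strand), was read from few counts, 61 to 189 a library. It stood at 18.4, 22.7, 17.5 and 12.1 CPM in *Atf4* null and at 14.6, 11.6, 12.5, 7.72 and 16.7 CPM in wildtype libraries. The groups overlapped, with *Atf4* null 4 inside the wildtype range although *Spry1* and *Spry2* were highest there. The log2 fold change of 0.49 had a 95% interval of -0.086 to 1.06 and did not pass (adjusted p = 0.35). An increase of the size seen in *Spry1* lies inside this interval.

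3 genes of 10 called higher and 0 called lower stand beside 2.23% and 3.67% of all 14903 genes tested, 5.9% in either direction. Groups that did not overlap with *Atf4* null higher were seen in the same 3 of 10 genes and in 4.65% of all genes, and in 10.2% of all genes counting both directions. The median log2 fold change of the 10 genes was 0.43, with 8 above 0, and that of all genes was 0.00072. The genes were selected as a pathway with earlier results of these data known, so these shares describe the list.

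**Figure D1:**
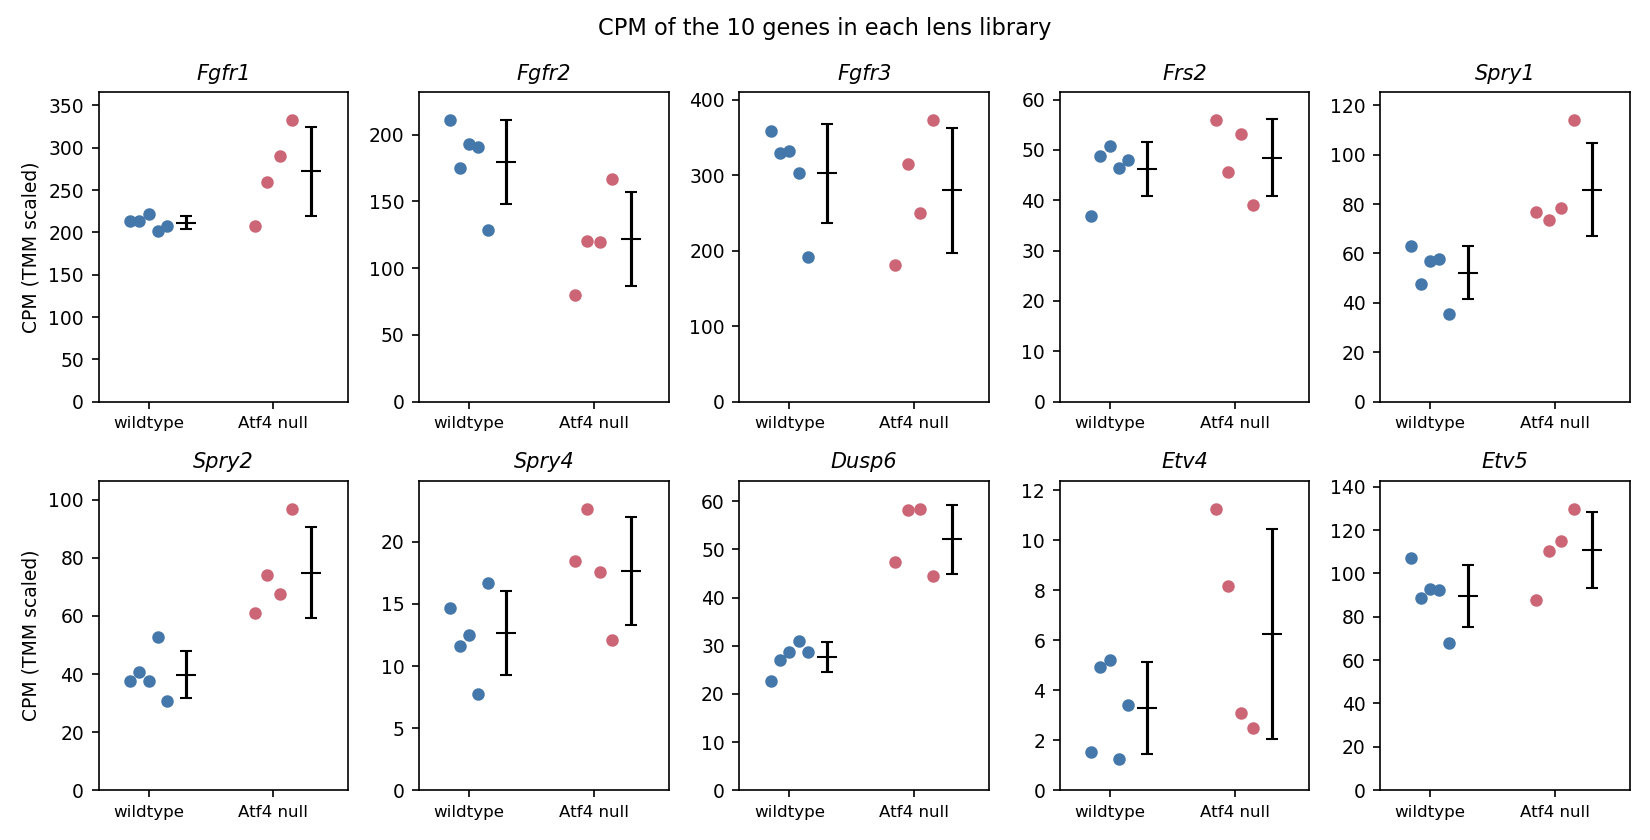
CPM of each gene (vertical axes, from 0) in each of the 5 wildtype (blue) and 4 Atf4 null (red) libraries, in replicate order within a group; the black bars are mean ± SD. The groups are separate for Spry1, Spry2 and Dusp6 and overlap for the other 7 genes.

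The retina sum was 951, 579, 632 and 347 CPM in *Atf4* null 1 to 4, so *Atf4* null 4 had the least. *Spry1* and *Spry2* were highest in that library, and *Spry4* was lowest there among the *Atf4* null libraries. *Dusp6* was lowest in *Atf4* null 4 and next lowest in *Atf4* null 1, the libraries with the least and the most retina RNA. The part of retina RNA in these differences was not tested. With wildtype 5 and *Atf4* null 1 both left out, an alternative chosen after the libraries were seen, 5 of the 10 genes passed. *Fgfr1* (higher in *Atf4* null lenses) and *Fgfr2* (lower) joined *Dusp6*, *Spry1* and *Spry2*. Calls over all genes rose as well, from 880 of 14903 to 1339 of 14875.

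*Etv5*, an ETS factor that responds to FGF (chr16:22200057-22258483, minus strand), was the more abundant of its pair. It stood at 87.7, 110, 115 and 130 CPM in *Atf4* null 1 to 4 and at 107, 88.6, 92.6, 92.1 and 67.7 CPM in wildtype 1 to 5. 3 *Atf4* null libraries were above all wildtype libraries and *Atf4* null 1 was below 4 of them. The log2 fold change was 0.30 (SE 0.15, 95% interval -0.012 to 0.62, adjusted p = 0.28). It passed only when counts were scaled by library size alone (adjusted p = 0.039), a scaling that moved the median of all genes up to 0.12.

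*Etv4* (chr11:101660568-101676197, minus strand), the related factor, had 10 to 113 counts a library. It stood at 11.3, 8.16, 3.07 and 2.48 CPM in *Atf4* null and at 1.54, 4.94, 5.19, 1.27 and 3.43 CPM in wildtype libraries. *Atf4* null 1 and 2 were above every wildtype library, and *Atf4* null 3 and 4 lay within the wildtype range. The log2 fold change of 0.93 was thus as large as that of *Dusp6*, but its 95% interval ran from -0.31 to 2.18 and it did not pass (adjusted p = 0.42).

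The 3 receptors did not move together. *Fgfr1* (chr8:26008745-26066824, plus strand) stood at 207, 260.0, 289.8 and 333 CPM in *Atf4* null 1 to 4 and at 213, 214, 222, 202 and 207 CPM in wildtype 1 to 5. The wildtype libraries were within a narrow range, with a mean of 211 ± 7.53 CPM (SD, n = 5), 3 *Atf4* null libraries were above it and *Atf4* null 1 was inside it. The log2 fold change was 0.37 (SE 0.13, adjusted p = 0.13, exact permutation p = 0.032). It passed without *Atf4* null 1 (log2 fold change 0.48, adjusted p = 0.025) and with library size scaling alone (0.47, adjusted p = 0.013).

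*Fgfr2* (chr7:129763471-129868272, minus strand) went the other way. It stood at 80.0, 120.3, 119.9 and 166 CPM in *Atf4* null 1 to 4 and at 211, 175, 193, 191 and 129 CPM in wildtype 1 to 5. *Atf4* null 1 to 3 were below every wildtype library, and the groups overlapped through *Atf4* null 4 and wildtype 5, the wildtype library with muscle and mesenchyme RNA. The mean was 180 ± 31.3 CPM in wildtype (SD, n = 5) and 122 ± 35.3 CPM in *Atf4* null lenses (SD, n = 4), a log2 fold change of -0.56 (SE 0.19, 95% interval -0.98 to -0.15, adjusted p = 0.11, exact permutation p = 0.040). This call depended on the settings: *Fgfr2* passed in DESeq2 (log2 fold change -0.56, adjusted p = 0.048), without a filter on low counts (-0.57, 0.040), without *Atf4* null 4 (-0.75, 0.028) and without wildtype 5 (-0.66, 0.027), and its sign was the same in all 18 alternatives.

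*Fgfr3* (chr5:33879067-33894412, plus strand) stood at 181, 315, 251 and 373 CPM in *Atf4* null 1 to 4 and at 359, 329, 333, 303 and 191 CPM in wildtype 1 to 5. The groups overlapped over nearly their whole ranges, with *Atf4* null 1 and wildtype 5 the lowest and *Atf4* null 4 the highest. The 95% interval of the fold difference was 0.67 to 1.27 (log2 fold change -0.11, adjusted p = 0.84), and the sign turned without *Atf4* null 1 (0.054). Among *Atf4* null libraries, *Fgfr1*, *Fgfr2*, *Fgfr3*, *Spry2* and *Etv5* were all lowest in number 1 and highest in number 4, the libraries with the lowest and highest sum of fiber markers, and the part of fiber RNA in these levels was not tested.

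*Frs2*, the docking protein that couples the receptors to RAS (chr10:116905331-116984439, minus strand), stood at 55.9, 45.7, 53.2 and 39.0 CPM in *Atf4* null and at 37.0, 48.7, 50.8, 46.5 and 48.0 CPM in wildtype libraries. The groups overlapped, and the fold difference had a 95% interval of 0.83 to 1.32 (log2 fold change 0.07, adjusted p = 0.87). Its sign turned without *Atf4* null 1 (-0.0044). Of the 4 receptor and adaptor genes none passed in edgeR's test, 2 had an unadjusted p below 0.05 (*Fgfr1* 0.014 and *Fgfr2* 0.011), beside 19.6% of all genes, and DESeq2 called *Fgfr2*.

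**Figure D2:**
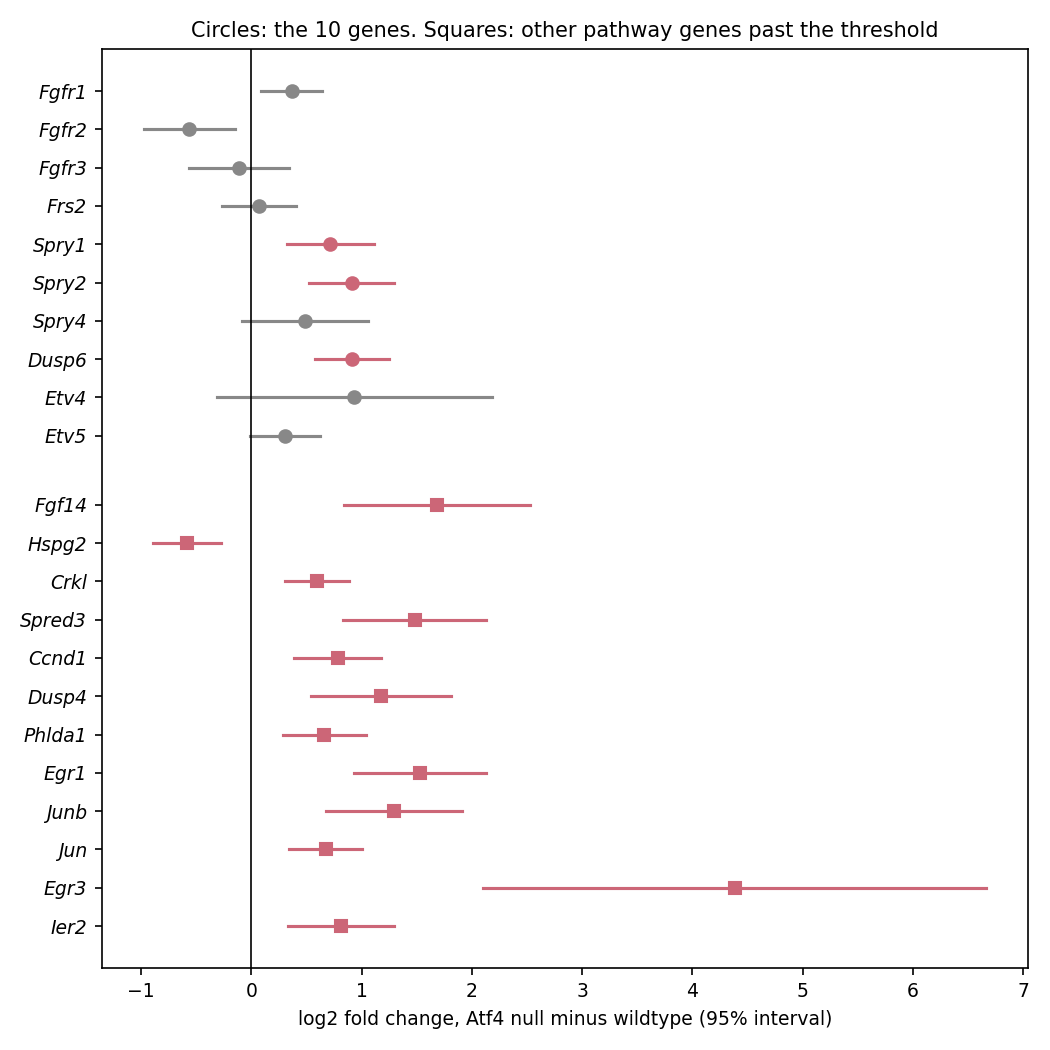
Log2 fold change, Atf4 null minus wildtype, with 95% interval (horizontal axis) for the 10 genes (circles) and for the other pathway genes with adjusted p below 0.05 (squares), red where this threshold was passed and grey where not. Dusp6, Spry2 and Spry1 lie right of 0 with intervals that start at 0.58, 0.52 and 0.33, and Egr3 rests on few counts.

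The balance of the receptors was compared within each library, where scaling cancels, on counts per length of the canonical transcript (FPKM). These ratios were chosen after the receptor values were seen. The ratio of *Fgfr1* to *Fgfr2* was 2.38, 1.99, 2.22 and 1.84 in *Atf4* null 1 to 4 and 0.93, 1.12, 1.05, 0.97 and 1.48 in wildtype 1 to 5. All *Atf4* null libraries were above all wildtype libraries, although neither gene passed alone. The mean was 2.11 ± 0.243 (SD, n = 4) against 1.11 ± 0.220 (SD, n = 5), 1.89 times as high (exact permutation p = 0.016, 0.032 after Benjamini-Hochberg adjustment over 4 receptor quantities). Leaving out each library in turn kept it between 1.81 and 2.07 times, and the exact permutation p of 0.018 to 0.029 were the smallest that these numbers of libraries can give, so they say nothing of stability.

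The ratio of *Fgfr2* to *Fgfr3* also separated the genotypes, at 0.285 to 0.358 in *Atf4* null and 0.398 to 0.503 in wildtype libraries (exact permutation p = 0.0079, adjusted 0.032). The ratio of *Fgfr1* to *Fgfr3* did not (p = 0.056 in the exact permutation test, adjusted 0.075), nor did the sum of the 3 receptors, 132 ± 33.5 FPKM in *Atf4* null (n = 4) and 138 ± 21.4 FPKM in wildtype lenses (n = 5; exact permutation p = 0.67). *Fgfr2* thus made up 16.2% ± 0.820 (SD, n = 4) of receptor FPKM in *Atf4* null and 23.0% ± 1.13 (SD, n = 5) in wildtype lenses, *Fgfr1* 34.1% and 25.5%, and *Fgfr3* 49.7% and 51.5%. The order of the *Atf4* null libraries by *Fgfr1* to *Fgfr2* ratio was that of their retina marker sums, and wildtype 5, rich in muscle and mesenchyme RNA, had the highest wildtype ratio. The part of other cell types in the ratio was not tested.

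**Figure D3:**
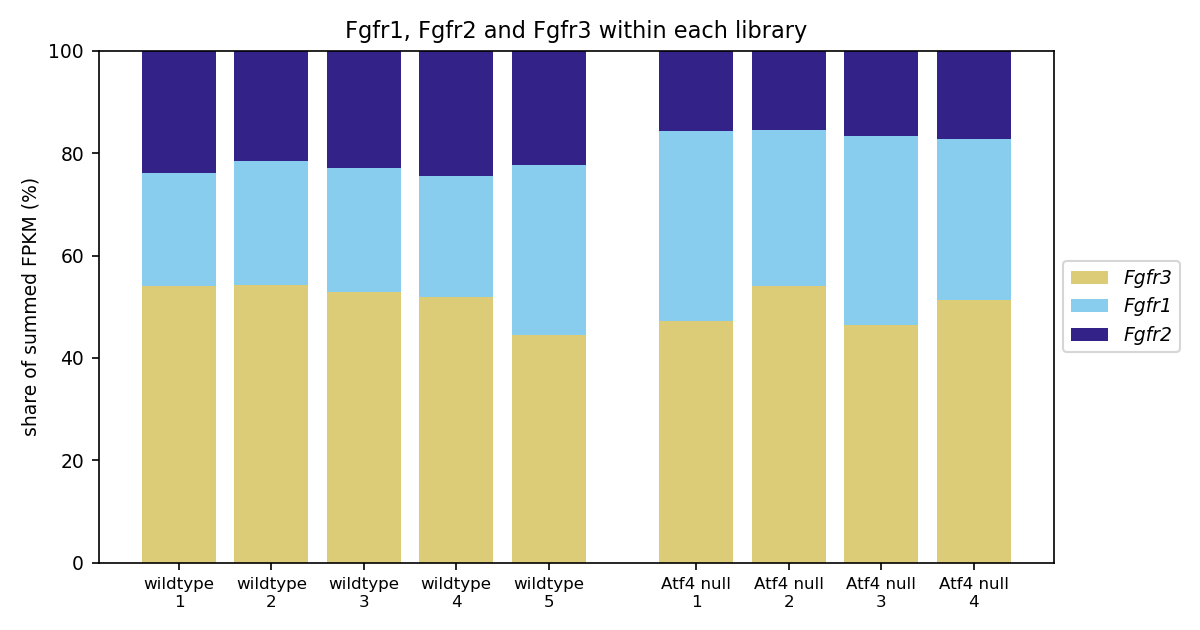
Share of the summed FPKM of Fgfr1, Fgfr2 and Fgfr3 (vertical axis, percent) held by each receptor in each library. Fgfr2 (top) takes 21.6% to 24.4% in the wildtype and 15.4% to 17.1% in the Atf4 null libraries.

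Per transcript length, *Fgfr3* was the most abundant of the 10 genes in wildtype lenses, with 71.8 ± 15.5 FPKM (SD, n = 5), and its lowest library was above the highest of every other gene. *Fgfr1* (34.4 ± 1.23 FPKM) and *Fgfr2* (31.8 ± 5.54 FPKM) overlapped, and so did each further neighbour in the descending order *Fgfr2*, *Etv5* (22.5), *Spry1* (19.3), *Spry2* (12.3) and *Dusp6* (9.76 FPKM). Below them, *Frs2* (7.17 FPKM) was separate from both neighbours, and *Spry4* (2.66) and *Etv4* (1.36 FPKM) overlapped at the bottom. In *Atf4* null lenses *Fgfr2*, with 21.6 FPKM, stood at rank 6 in the order of means, against rank 3 in wildtype lenses, behind *Spry1* (31.8), *Etv5* (27.7) and *Spry2* (23.1 FPKM). These levels rest on the length of 1 annotated transcript a gene. Per summed exon length they were lower (*Fgfr3* 34.3 FPKM in wildtype lenses), *Dusp6* (8.15) stood above *Spry2* (7.74 FPKM) in wildtype lenses, and *Fgfr2* (10.7 FPKM) stood at rank 7 in *Atf4* null lenses, with *Dusp6* (15.4 FPKM) also above it.

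The other genes of the pathway were read from 5 lists, 80 tested genes in all, of which 11 were called higher and 1 lower. Their median log2 fold change was 0.074. The calls were 1 of 10 tested FGF genes, 1 of 18 coreceptor and heparan sulfate genes, 1 of 26 relay genes, 4 of 15 further feedback and ERK target genes and 5 of 11 immediate early genes. The share over all genes tested was 5.9% (2.23% higher and 3.67% lower), so the first 3 lists were near it. The differences between these lists were not tested. The count varied with the library left out: 3 passed without *Atf4* null 2, 7 without *Atf4* null 3, and 7, 6, 4 and 5 without wildtype 1, 2, 3 and 4. It was 11 without *Atf4* null 1, 12 without *Atf4* null 4 and 15 without wildtype 5. In the omissions that lowered it to 7 or fewer, the calls over all genes also fell, from 880 to between 527 and 597.

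The only FGF gene called was *Fgf14*, a member of the intracellular FGF-homologous group and not a secreted ligand. It rose from 2.47 ± 0.648 CPM (SD, n = 5) to 7.96 ± 1.95 CPM (SD, n = 4; log2 fold change 1.68, SE 0.39, adjusted p = 0.022). It lost the call without *Atf4* null 2 (adjusted p = 0.054), *Atf4* null 3 (0.094) or wildtype 4 (0.052). The call was also lost without a filter on low counts (0.053) and with the replicate number as a block (0.055). *Fgf15*, a secreted FGF that retinal progenitor cells make, had the highest FPKM of the list and stood at 339, 191, 211 and 79.8 CPM in *Atf4* null 1 to 4 and at 60.7, 97.5, 90.0, 142 and 91.9 CPM in wildtype 1 to 5. The groups overlapped, the *Atf4* null libraries were ordered as their retina marker sums were, and the log2 fold change was 1.09 (SE 0.32, adjusted p = 0.063), with a call without *Atf4* null 4 (adjusted p = 0.0050) or wildtype 5 (0.045) and in edgeR's exactTest (0.019), without a filter on low counts (0.0017), with a filter of at least 10 counts (0.050) and with library size scaling alone (0.048). *Fgf13*, also of the intracellular group, gave 0.80 (adjusted p = 0.25). 12 ligand genes, *Fgf10* with at most 43 and *Fgf7* with at most 39 counts a library among them, had too few counts to be tested.

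*Hspg2*, which encodes perlecan, the heparan sulfate proteoglycan of the lens capsule, was the gene called lower. It stood at 1209, 1595, 1797 and 1984 CPM in *Atf4* null 1 to 4 and at 2721, 2515, 2508, 2482 and 2108 CPM in wildtype 1 to 5. The groups did not overlap, and the log2 fold change was -0.58 (SE 0.14, adjusted p = 0.029, exact permutation p = 0.0079). It missed the threshold without *Atf4* null 2 (adjusted p = 0.10), *Atf4* null 3 (0.065) or any of wildtype 1 to 4 (0.071 to 0.075). *Fgfrl1*, a receptor-like protein without a kinase domain, gave -0.06 (adjusted p = 0.93), with a sign that changed between alternatives.

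In the relay, *Crkl*, an adaptor protein that FRS2 and other docking proteins bind, stood at 84.5 to 128 CPM against 59.2 to 75.0 CPM (log2 fold change 0.59, SE 0.14, adjusted p = 0.020), and lost the call without *Atf4* null 3 (adjusted p = 0.072), wildtype 1 (0.050) or wildtype 3 (0.058). *Map2k2*, an ERK kinase, gave -0.20 (adjusted p = 0.44). *Shc1*, an adaptor, gave -0.57 (adjusted p = 0.17) and passed without *Atf4* null 4 (-0.85, adjusted p = 0.021).

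Among the further feedback and target genes, *Spred3*, a Sprouty-related inhibitor, stood at 25.3, 36.6, 34.1 and 52.1 CPM in *Atf4* null 1 to 4 and at 7.66 to 19.2 CPM in wildtype libraries. This was a log2 fold change of 1.48 (SE 0.30, adjusted p = 0.010), and it passed in all 18 alternatives. *Dusp4*, another phosphatase of MAP kinases, rose from 17.0 ± 7.10 (SD, n = 5) to 38.4 ± 10.4 CPM (SD, n = 4; log2 fold change 1.17, SE 0.30, adjusted p = 0.032), without overlap. *Ccnd1*, the D-type cyclin, stood at 674, 410.2, 407 and 306 CPM against 237 to 296 CPM (log2 fold change 0.78, SE 0.18, adjusted p = 0.024), highest in the *Atf4* null library with the most retina RNA. *Phlda1* gave 0.66 (SE 0.18, adjusted p = 0.043) and *Cic*, a repressor of ETS target genes that ERK inactivates, 0.19 (adjusted p = 0.41). *Dusp4* lost its call without *Atf4* null 2 (adjusted p = 0.098), *Atf4* null 4 (0.084), wildtype 3 (0.076) or wildtype 4 (0.077), and *Ccnd1* without *Atf4* null 2 (0.051) or wildtype 1, 2 or 3 (0.055 to 0.069). Among the omissions of 1 library, *Phlda1* kept its call only without *Atf4* null 1 or wildtype 5, with an adjusted p of 0.16 without *Atf4* null 2.

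5 immediate early genes, which ERK and other signals induce quickly, were called higher. *Egr1*, a zinc finger factor, stood at 21.6, 48.0, 51.1 and 33.0 CPM in *Atf4* null 1 to 4 and at 10.5, 11.97, 10.4, 13.5 and 20.03 CPM in wildtype 1 to 5. The groups were separate by a narrow margin between *Atf4* null 1 and wildtype 5, and the log2 fold change was 1.53 (SE 0.28, adjusted p = 0.0053), with a call in all 18 alternatives. The AP-1 subunits *Junb* (1.29, SE 0.29, adjusted p = 0.017) and *Jun* (0.67, SE 0.15, adjusted p = 0.021) and the early gene *Ier2* (0.81, SE 0.22, adjusted p = 0.049) were also higher in every *Atf4* null library. *Junb* lost its call without *Atf4* null 2 (adjusted p = 0.062), and *Jun* without that library (0.068) or wildtype 2, 3 or 4 (0.055 to 0.061). *Ier2* kept its call in 1 of 9 omissions of 1 library and in 4 of the 9 other alternatives. *Egr3* was listed at 1.30, 6.72, 1.21 and 1.89 CPM in *Atf4* null and at 0 to 0.321 CPM in wildtype libraries, passed (adjusted p = 0.026) and missed the threshold without *Atf4* null 2 (0.15) or wildtype 2, 3 or 4 (0.058 to 0.059). *Dusp1*, a stress-induced phosphatase, gave -0.21 (adjusted p = 0.70).

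**Figure D4:**
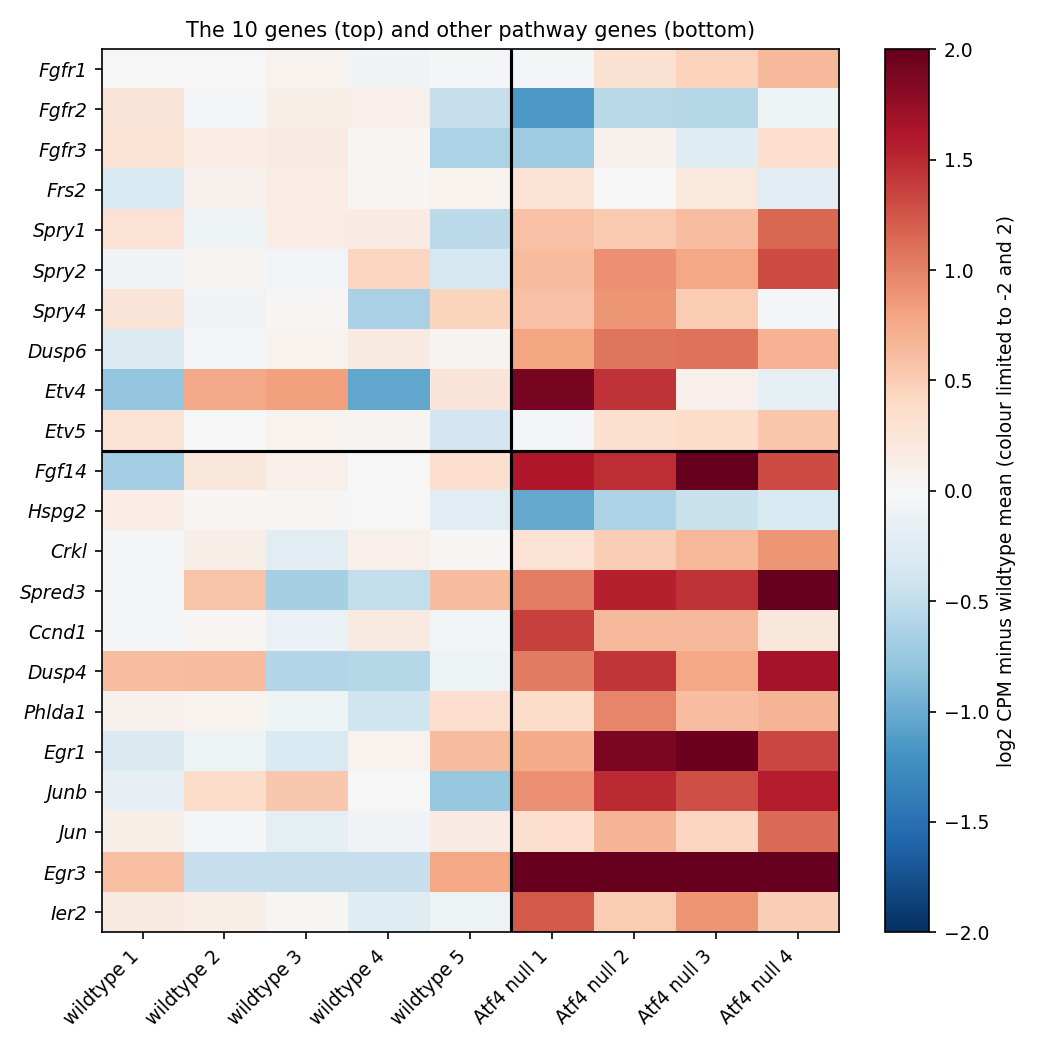
Log2 CPM minus the wildtype mean (colour, limited to -2 and 2) of the 10 genes above the line and of the other called pathway genes below it, in each library (columns). Spry1, Spry2 and Dusp6 are red in all 4 Atf4 null columns, Fgfr2 is blue in Atf4 null 1 to 3, and the called pathway genes other than Hspg2 are red in the 4 Atf4 null columns.

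Likeness was measured as the root mean square difference of log2 CPM over the 9 libraries, each gene centred on its mean, among 11290 genes with a mean of at least 5 CPM. The genes nearest to *Dusp6* were *Fjx1* (0.13), *Mak16* (0.14) and *Hsph1* (0.16), where the median gene was at 0.58. Nearest to *Spry2* were *Eif3j1* (0.12), *Cltb* (0.14) and *Ythdc2* (0.14, median gene 0.61), and nearest to *Spry1* were *Nop14* (0.13), *Aup1* (0.14) and *Nsun2* (0.14, median gene 0.55). None of the other 9 genes was among these neighbours. Within the group, *Fgfr1* and *Etv5* were the closest pair (0.16), followed by *Spry1* and *Spry2* (0.22). The measure holds the difference between genotypes, so genes of like fold change come out near each other.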

How the data were processed

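Lens RNA from 4 *Atf4* null embryos was compared with that from 5 wildtype embryos at E16.5. The authors trimmed the reads (Trim Galore), removed ribosomal reads (HISAT2), mapped what was left on GRCm39 and counted it per Ensembl gene (HTSeq), and the deposited values are unnormalized whole-number counts per gene. The kit is stranded, but the strand setting of the counting is not given in the sources used here. Annotated neighbours that overlap the 10 genes lie on the opposite strand and, where counted, had at most 26 counts a library. HTSeq's summary entries (44.6% to 47.7% of all entries) were left out. Gene identifiers were joined to GENCODE vM39 (GRCm39) for symbols, positions and canonical transcripts: 54749 of 55416 had a symbol, and all 10 genes matched. Positions are those of canonical transcripts, since the gene model of *Fgfr2* includes a long read-through transcript.

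Genotypes were compared in edgeR 4.0.16 (R 4.3.3) with filterByExpr, TMM scaling and the quasi-likelihood test, no covariate and all 9 libraries, and p-values were adjusted by Benjamini-Hochberg over 14903 genes (threshold 0.05). The authors' own test was edgeR's exactTest, used here as an alternative, as was DESeq2 1.42.0. Standard errors and 95% intervals come from the quasi-likelihood F statistic. Permutation tests of single genes used log2 CPM with a prior count of 2. Those of the receptor ratios and the receptor sum used the log2 of each library's FPKM ratio or sum, without a prior count. FPKM here is TMM-scaled CPM per kilobase of the canonical transcript. Counts differed between libraries beyond sampling noise in all 36 pairs (chi-square over its degrees of freedom of 7.7 or more), so no library repeats another. Within wildtype, the sample titles and the library names of the counts do not match, so replicate numbers there are uncertain, while genotypes are not.

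The 10 genes and the gene lists were chosen with earlier results of these data known. All 10 genes are named. Of the 5 other pathway lists, taken from general knowledge of the pathway, every called gene (at most 6 a list) and the 2 genes with the highest mean FPKM are named, except 1 gene of the relay list, which is not reported here and is left out of the counts of these lists. For each called gene of the 10, the 3 most similar genes are named. Marker lists of 9 cell types and 16 crystallins were summed as CPM: beside those in the report, blood markers summed to 183 to 256 CPM in *Atf4* null and 231 to 743 CPM in wildtype libraries, endothelium to 219 to 436 and 381 to 670, macrophage to 78.3 to 103 and 67.9 to 82.7, and pigment to 43.1 to 110 and 20.2 to 143 CPM.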

Additional observations from a re-analysis of the deposited data

Results flagged for a closer look

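29 named genes were searched in both groups, 58 groups in all, for 1 library far from the others (Dixon's test), of which chance gives about 1 in 20, and 4 were found. *Spry1* was 114 CPM in *Atf4* null 4, against 78.62 CPM in the next library. *Fgf13* was 22.92 CPM in *Atf4* null 1, against 10.08 CPM in the next. *Egr3* was 6.719 CPM in *Atf4* null 2, against 1.893 CPM in the next. *Shc1* was 243.8 CPM in wildtype 5, below the 318.7 CPM of the next lowest. Without *Atf4* null 4, the log2 fold change of *Spry1* was 0.55 and it no longer passed in edgeR's quasi-likelihood test (adjusted p = 0.093).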

How the results depend on the processing

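Of the 10 genes, 3 passed in the reported fit, 2 to 4 when each library was left out in turn, 5 with library size scaling alone (790 genes higher and 439 lower over all genes, against 333 and 547 with TMM) and 5 with wildtype 5 and *Atf4* null 1 both left out. *Dusp6* and *Spry2* passed in all 18 alternatives, and *Spry1* in 12. Over all genes the 880 calls became 1397 in DESeq2, 1339 with both libraries left out, and 527 to 1207 in the omissions of 1 library. Of the 80 other pathway genes, 12 passed, 21 with library size scaling alone, and 3 to 15 in the omissions. Over the omissions of 1 library the log2 fold change ran from -0.2860 to 0.0545 for *Fgfr3*, from -0.0044 to 0.1574 for *Frs2* and from -0.3533 to 0.1272 for *Fgfrl1*. Signs turned without *Atf4* null 1 for *Fgfr3* (0.0545), *Frs2* (-0.0044) and *Fgfrl1* (0.1272), and for *Fgfrl1* with library size scaling (0.0371), without *Atf4* null 2 (0.0010), without wildtype 1 (0.0073) and with both libraries left out (0.0154). The cause was not tested. Replicate numbers did not pair the libraries (correlation of same-numbered deviations -0.13 to 0.0080, and no *Atf4* null library was closest to its own number). A fit with the replicate number as a block, on 8 libraries without wildtype 5, called 873 genes, 4 of the 10 genes, with *Fgfr2* added (log2 fold change -0.70, adjusted p = 0.040), and 12 other pathway genes. Counts were few for *Etv4* (10 to 113 a library) and *Spry4* (61 to 189).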
